A study of Homo sapiens with 12 samples.

Results

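Vehicle-treated HUCCT1 cells were compared with vehicle-treated EGI-1 cells, 2 established human cholangiocarcinoma (CCA) cell lines. The comparison took the 2 HUCCT1 vehicle libraries and the 2 EGI-1 vehicle libraries of the deposited count table, 4 of the 12 RNA-sequencing libraries of the series, and scaled them together. The study measured the response of CCA cells to decitabine, an inhibitor of DNA methyltransferases (DNMTs), and to talazoparib, an inhibitor of poly(ADP-ribose) polymerase (PARP). The other 8 libraries came from HUCCT1 cells with 1 µM decitabine and from EGI-1 cells with 0.5 µM decitabine, 200 nM talazoparib or both drugs, with 2 libraries in each arm. The vehicle was DMSO, all cells were labelled wild type and were harvested at 72 h, so the control cells had received solvent rather than nothing. HUCCT1 cells were grown in RPMI1640 and EGI-1 cells in DMEM, both with fetal bovine serum, and the names of the libraries place the lines in different library series. Cell line, culture medium and library series therefore cannot be told apart in any value given here. Each line stands for a single tumor, and no source says whether its 2 libraries came from separate cultures, so p-values measure only the spread between these libraries.

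Cholangiocarcinoma arises from the epithelium of the bile ducts, whose cells carry keratins 7 and 19, the adhesion molecule EPCAM and E-cadherin. Tumors of this kind differ in how much of the biliary program they keep, in their growth factor receptors and in the genes that they hold silent. DNA methylation at CpG-rich promoters is a well known way in which carcinoma cells keep genes silent, and DNMT inhibitors can reopen such genes. A pair of CCA lines can therefore be set side by side before any drug is given, although here medium and library series differ along with the line.

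The vehicle libraries held between 26152270 and 34965627 counts. On log2 CPM, counts scaled to a common library size, the correlation across genes was 0.991 between the HUCCT1 libraries and 0.993 between the EGI-1 libraries, and lay between 0.870 and 0.874 across lines, where genes are not independent replicates. With 2 libraries against 2, the smallest p an exact permutation test allows is 0.333, and gene p-values were therefore taken from edgeR's quasi-likelihood model, fitted over all genes. The mRNAs of the mitochondrial genome took 2.89% and 2.48% of counts in HUCCT1 and 1.60% and 1.61% in EGI-1. The stretch of chromosome 6 that holds the MHC (chr6:28503296-33457544, GRCh38) gave almost no counts in the whole series. Of its 181 protein-coding genes, all but 18 were at 2 CPM or less in all 12 libraries, among them the tubulin gene TUBB with 5 to 21 counts, so levels of HLA genes, MICA, MICB and the other genes of the interval are not described, although its genes stayed in the counts over all genes and lists.

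Both lines carried a biliary epithelial profile, although they differed sharply in keratin 7. Of 15 biliary markers, all but CFTR and SPP1 reached 1 CPM in at least 1 library, and their summed level was 15310 and 16990 CPM in HUCCT1 and 9038 and 9047 CPM in EGI-1. KRT7 held a large part of the HUCCT1 sums. Of the 13 markers tested 5 were higher in HUCCT1 and 6 in EGI-1, with a median log2 fold change of -0.15. KRT8, a simple epithelial keratin, stood at 3863 and 3860 CPM in HUCCT1 and at 4300 and 4258 CPM in EGI-1, and this difference did not pass the test (adjusted p = 0.074, edgeR's quasi-likelihood test). KRT19 was higher in HUCCT1, at 2376 and 2932 CPM against 1438 and 1514 CPM, and EPCAM was higher in EGI-1, at 274 and 272 CPM against 165 and 157 CPM. KRT7 was measured at 6239 and 7177 CPM in HUCCT1 and at 38 and 41.4 CPM in EGI-1, a log2 fold change of 7.40 (SE 0.11, adjusted p = 2.9e-17). KRT7 thus had the widest gap among the biliary markers, with no overlap between the lines. SOX9, a biliary progenitor factor, stood at 232 and 286 CPM in HUCCT1 and at 129 and 137 CPM in EGI-1.

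Markers of other liver cell types were low in both lines. Of 15 hepatocyte markers, 12 were under 1 CPM in all 4 libraries and 3 had no count, and most of their summed level of 81.3 and 56.6 CPM in HUCCT1 and 23.7 and 27.5 CPM in EGI-1 was SERPINA1. The 10 fibroblast markers summed to 44.7 and 43.3 CPM in HUCCT1 and to 32.6 and 31.8 CPM in EGI-1. Of these, COL1A1 held 25.6 and 28.3 against 29.5 and 27.5 CPM, while LUM, which encodes lumican, was at 9.97 and 6.98 CPM in HUCCT1 and without a count in EGI-1. Endothelial markers summed to 6.69 and 6.07 CPM in HUCCT1 and to 20.2 and 22 CPM in EGI-1, where CDH5 alone held 13.6 and 14.6 CPM. Leukocyte markers stayed between 7.41 and 10.8 CPM in the 4 libraries. The samples were cultured cell lines, and in bulk libraries a low level in every cell and a higher level in few cells cannot be told apart.

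**Figure D1:**
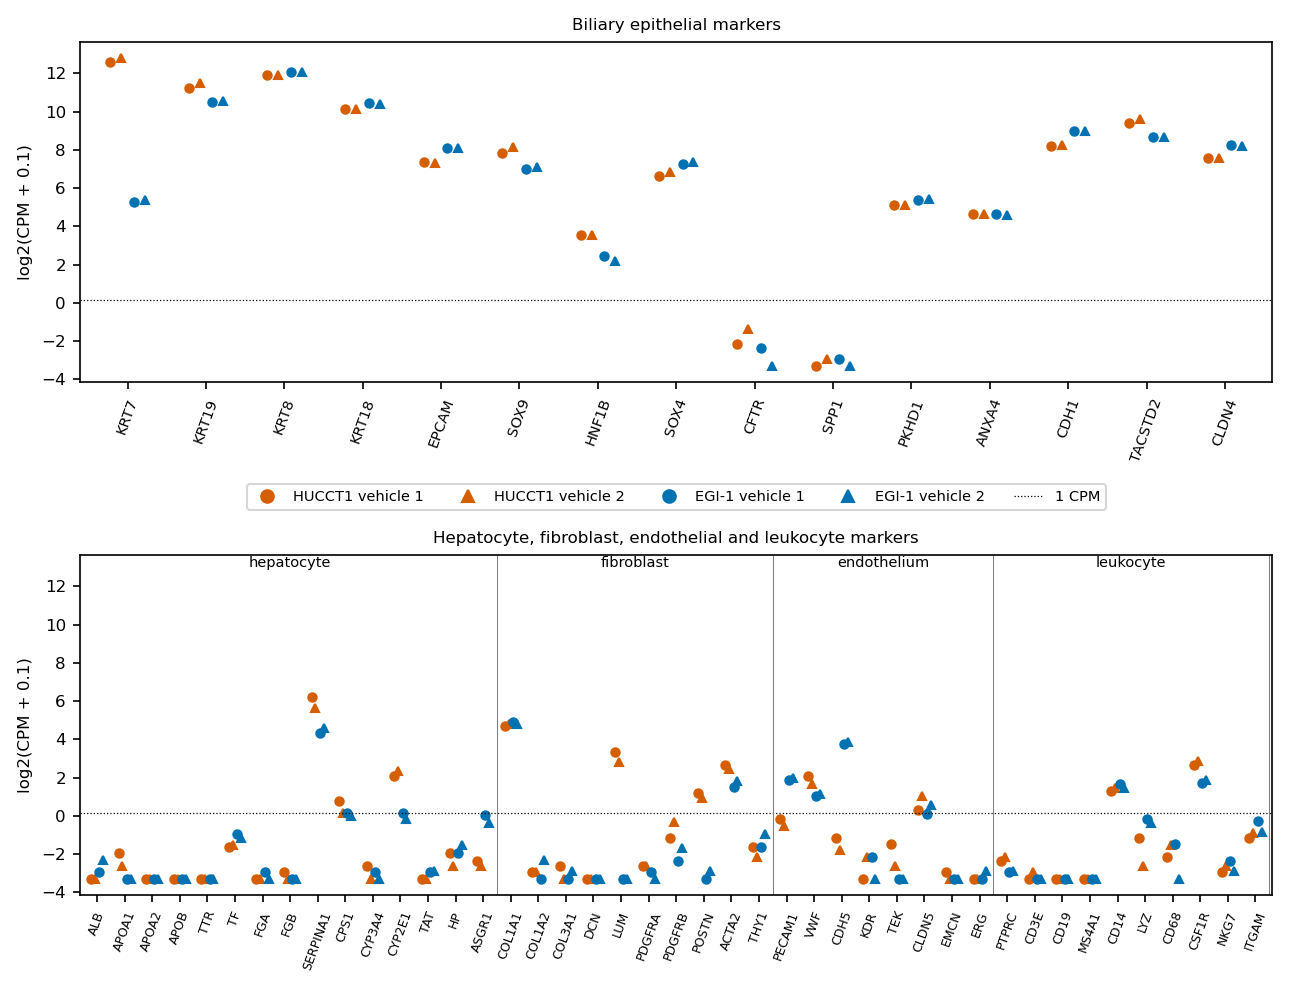
Level of each marker in the 4 vehicle libraries as log2(CPM + 0.1), biliary markers above and markers of other cell types below, with HUCCT1 in orange, EGI-1 in blue, circles for library 1, triangles for library 2 and a dotted line at 1 CPM. Most biliary markers lie high in all 4 libraries, KRT7 lies at 6239 and 7177 CPM in HUCCT1 against 38 and 41.4 CPM in EGI-1, and most other markers lie below the dotted line.

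The lines differed in most genes. Of 22221 genes tested, 13790 (62.1%) were called at a Benjamini-Hochberg adjusted p under 0.05 in the quasi-likelihood test of edgeR, 6929 (31.2%) higher in HUCCT1 and 6861 (30.9%) higher in EGI-1. A difference beyond 2-fold, tested against that size with edgeR's glmTreat, held for 4331 genes (19.5%), of which 2135 (9.61%) were higher in HUCCT1 and 2196 (9.88%) higher in EGI-1. The near-even split depended on the scaling. With upper-quartile factors in place of TMM the calls were 5907 and 7916, with library totals alone they were 4980 and 9145, and these scalings moved the median log2 fold change of all genes from -0.021 to -0.14 and -0.27. Protein-coding genes had a median of 0.059, long noncoding RNAs one of -0.14 and processed pseudogenes one of -0.27. Calls were more frequent among protein-coding genes, with 5394 higher in HUCCT1 and 4592 higher in EGI-1 of 13910 tested. Of 4666 long noncoding RNAs these numbers were 987 and 1312, and of 1827 processed pseudogenes 235 and 447. These shares and counts are the background for every count of list members below. Any list of genes would hold many calls here, and for lists of protein-coding genes the protein-coding counts are the nearer background. Under TMM the calls over all genes divided almost evenly between the lines, so an even division within a list lies near this background.

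**Figure D2:**
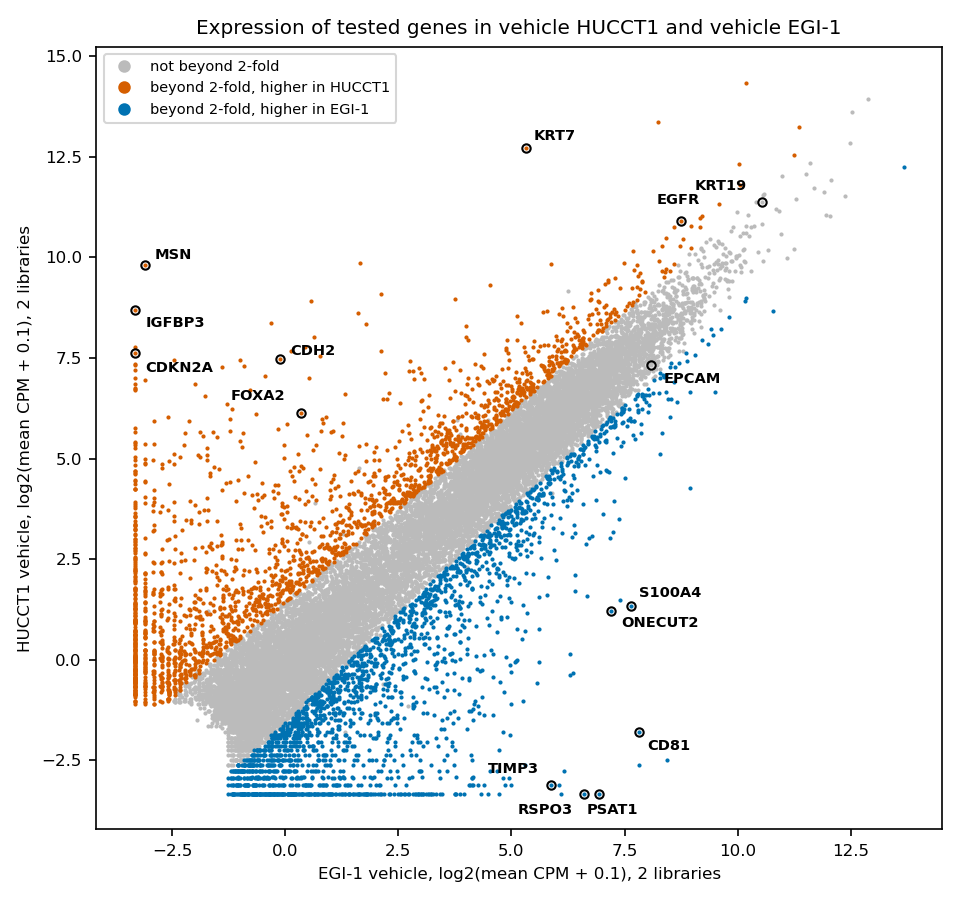
Mean level of each tested gene in the 2 EGI-1 vehicle libraries (x axis) and the 2 HUCCT1 vehicle libraries (y axis), as log2(CPM + 0.1), with genes beyond 2-fold colored orange where higher in HUCCT1 and blue where higher in EGI-1. Most genes follow the diagonal, while MSN, IGFBP3 and CDKN2A lie on the left edge, without counts or nearly so in EGI-1, and PSAT1, RSPO3 and TIMP3 lie on the lower edge, without counts or nearly so in HUCCT1.

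A smaller group of genes was silent in a single line. A gene was called silent where both vehicle libraries of a line held 3 counts or fewer and both libraries of the other line held 1 CPM or more. This rule was a threshold on the same counts, so no test is given. In HUCCT1 250 genes were silent, 142 of them protein-coding, which was 1.18% of the 12033 protein-coding genes expressed in EGI-1. In EGI-1 284 genes were silent, 193 of them protein-coding, or 1.61% of the 12023 expressed in HUCCT1. Of these silent genes, 1 in HUCCT1 and 3 in EGI-1, of which 1 is protein-coding, lie in the MHC interval with its low counts, and their state is not read. Folds for these genes are lower bounds against a floor of 3 counts per library. Since the rule has edges, allowing 10 counts gave 440 and 447 silent genes, and asking for 5 CPM in the other line gave 76 and 102.

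Promoter sequences are shown for 4 of the most abundant of these genes, 3 silent in HUCCT1 that responded differently to decitabine and 1 silent in EGI-1. Each run is the 250 bases before the gene's start on its own strand, 5′ to 3′, from RefSeq (GRCh38.p14), with every CG dinucleotide in capitals.
TIMP3, chr22:32801455-32801704, plus strand, 26 CG: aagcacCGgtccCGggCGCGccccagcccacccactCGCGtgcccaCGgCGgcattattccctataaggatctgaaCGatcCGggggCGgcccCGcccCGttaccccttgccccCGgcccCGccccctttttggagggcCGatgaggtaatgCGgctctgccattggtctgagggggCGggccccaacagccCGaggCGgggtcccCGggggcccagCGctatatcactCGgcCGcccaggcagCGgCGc
PSAT1, chr9:78296875-78297124, plus strand, 30 CG: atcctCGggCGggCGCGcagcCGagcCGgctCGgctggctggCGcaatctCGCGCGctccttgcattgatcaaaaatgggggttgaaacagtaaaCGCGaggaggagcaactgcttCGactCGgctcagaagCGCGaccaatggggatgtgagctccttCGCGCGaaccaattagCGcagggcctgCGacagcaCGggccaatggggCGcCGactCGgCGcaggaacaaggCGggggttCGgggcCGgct
RSPO3, chr6:127118421-127118670, plus strand, 8 CG: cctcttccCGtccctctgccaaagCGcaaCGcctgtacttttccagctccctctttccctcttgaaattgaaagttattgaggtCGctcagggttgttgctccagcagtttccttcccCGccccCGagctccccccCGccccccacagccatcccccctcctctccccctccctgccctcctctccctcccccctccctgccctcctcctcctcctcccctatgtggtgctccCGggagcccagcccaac
IGFBP3, chr7:45921273-45921522, minus strand, 32 CG: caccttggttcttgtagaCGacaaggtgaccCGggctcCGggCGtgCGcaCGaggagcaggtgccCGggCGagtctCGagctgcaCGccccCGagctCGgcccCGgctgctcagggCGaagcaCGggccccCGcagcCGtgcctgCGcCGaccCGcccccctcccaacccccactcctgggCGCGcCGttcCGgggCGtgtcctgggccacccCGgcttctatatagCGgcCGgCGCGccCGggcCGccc

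TIMP3, PSAT1 and IGFBP3 carried a dense run of CG dinucleotides and RSPO3 few. Over all 34961 promoters of the RefSeq table, 32.5% held 20 or more CG in this window and 94.0% held at least 1. Among tested protein-coding genes with a promoter in the table, and taking for each gene the promoter with most CG, the median was 22 and 60.6% held 20 or more. The genes silent in HUCCT1 had a median of 17 and a share of 45.2% (115 of 142 matched), and those silent in EGI-1 had a median of 18 and a share of 47.3% (148 of 193 matched). The count of CG is a property of the reference sequence and says nothing of methylation in these cells.

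Among the genes silent in HUCCT1, PSAT1, which encodes phosphoserine aminotransferase of the serine synthesis pathway, had the highest level in the other line. It had 0 and 0 counts in HUCCT1 and 124 and 122 CPM in EGI-1, at least 1294-fold higher. RSPO3, an R-spondin that amplifies Wnt signals, had 0 and 0 counts against 101 and 94.7 CPM, at least 1026-fold higher in EGI-1. The RNA-binding protein gene CELF2 followed with at least 757-fold, and the zinc finger gene ZNF518B with at least 695-fold. TIMP3, an inhibitor of metalloproteinases, had 0 and 1 counts in HUCCT1 and stood at 55.8 and 60.8 CPM in EGI-1, at least 613-fold higher. INPP5D, the inositol phosphatase SHIP1 known from blood cells, ZNF141, the PP2A subunit gene PPP2R2C and SMO, the signal transducer of the Hedgehog pathway, had bounds of 415-fold, 334-fold, 322-fold and 303-fold. The histone gene H4C6 also met the rule, but near-identical copies share its reads and its level is uncertain.

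The genes silent in EGI-1 reached higher levels in the other line. MSN, the gene of moesin, which ties actin filaments to the plasma membrane, stood at 875 and 931 CPM in HUCCT1 and had 1 and 0 counts in EGI-1, at least 9015-fold lower. IGFBP3, a binding protein of insulin-like growth factors, stood at 396 and 426 CPM against 0 and 0 counts, at least 4104-fold higher in HUCCT1. CDKN2A, which encodes the cell cycle inhibitor p16 and the protein ARF, stood at 164.4 and 228 CPM against 0 and 0 counts. Its neighbors on chromosome 9 were silent in EGI-1 as well, with MTAP, of the methionine salvage pathway, at 171 and 156 CPM in HUCCT1, CDKN2B at 104 and 110 CPM and DMRTA1 at 7.49 and 5.97 CPM. These 4 genes span chr9:21802636-22455740 and form an unbroken run among the protein-coding genes expressed in either line. The matrix genes COL4A5 and EFEMP1, the flippase gene ATP10A, LRRN1, RFLNA and RTL8A completed the list of 10, with bounds between 1229-fold and 2184-fold.

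Some silent genes lay side by side, 26 of 142 in HUCCT1 and 13 of 193 in EGI-1 in runs of 3 or more. In HUCCT1, these runs were PCDHA11 to PCDHB6 on chromosome 5, HOXA9 to HOXA11 on chromosome 7 and 5 runs of zinc finger genes on chromosome 19, such as ZNF790, ZNF345, ZNF829 and ZNF568. In EGI-1, besides the CDKN2A run, they were UGT1A10, UGT1A7 and UGT1A1 on chromosome 2, which share exons, SMIM10, RTL8C and RTL8A on chromosome X, and the cancer-testis genes MAGEA3, CSAG1 and MAGEA12, also on chromosome X.

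The treated libraries, which the rule did not use, separated these genes further. Of the 142 protein-coding genes silent in vehicle HUCCT1, 77 (54.2%) were above 3 counts in both HUCCT1 decitabine libraries and 17 (12%) reached 1 CPM in both. Of 4916 protein-coding genes that were at the floor in vehicle HUCCT1 without being expressed in EGI-1, 16.6% were above 3 counts in both and 3.28% reached 1 CPM in both. TIMP3 went from 0 and 1 counts to 706 and 661 counts, the highest of the 17. FOXD1 reached 317 and 281 counts, WNT5B, a noncanonical Wnt ligand, 221 and 203 counts, INPP5D 4.57 and 5.33 CPM and RUNX3, a transcription factor often silenced in carcinoma, 99 and 89 counts. PSAT1 reached 85 and 82 counts, or 2.59 and 2.72 CPM, far below its level in EGI-1. HOXA9, HOXA10, QPRT, ZNF518B, TBX18, HCAR1, FUOM, NCCRP1, AADAC, FBXO27 and H4C6 were the others. RSPO3 remained at 0 and 0 counts, ZNF141 at 1 and 1 and SMO at 2 and 4, so genes of like level in EGI-1 behaved differently in decitabine-treated HUCCT1. By promoter, 53.3% of the genes that reached 1 CPM and 44% of those that did not held 20 or more CG, which are 8 of 15 and 44 of 100 genes.

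In EGI-1, 0 of 193 silent genes reached 1 CPM in both libraries of the decitabine, talazoparib or combination arm, and 10 (5.18%), 10 (5.18%) and 20 (10.4%) of them were above 3 counts in both. Of 5144 protein-coding genes at the floor in vehicle EGI-1 without being expressed in HUCCT1, 0 reached 1 CPM either, and 1.30%, 1.54% and 2.49% were above 3 counts in both. The dose of decitabine was 0.5 µM there and 1 µM in HUCCT1, so the values of the lines stand side by side without a comparison. IGFBP3, CDKN2A, CDKN2B, DMRTA1 and COL4A5 had 0 counts in all 8 EGI-1 libraries. The second combination library stood apart, with 72 of the 193 genes above 3 counts against 17 to 24 in the other 5 treated libraries, and with 196 counts of MSN, 185 of NLRP1 and 82 of SRGN. The leukocyte markers moved with it, since they summed to 32.1 CPM there against 7.52 to 10.7 CPM in the other 7 EGI-1 libraries, and PTPRC, the leukocyte antigen CD45, had 381 counts against 1 to 7. Their part in these counts was not tested.

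Genes that missed the silent rule, with over 3 counts in at least 1 library of the lower line, showed differences nearly as wide. Of the 10 leading genes per direction, 5 of those higher in HUCCT1 and 9 of those higher in EGI-1 still had a library of the lower line at 3 counts or fewer. ANPEP, an aminopeptidase of the apical membrane, stood at 106 and 124 CPM in HUCCT1 and at 0.096 and 0.21 CPM in EGI-1, a log2 fold change of 9.54 (SE 0.20). The GTPase gene RAB34, the secreted protease gene ADAMTS12, the cadherin gene CDH6, FNBP1, GGT5, AFAP1L1, CAMK2B and the matrix gene FSTL1 followed with 8.50 to 9.08. L1CAM, a neural adhesion molecule that carcinomas can express, stood at 452 and 520 CPM against 1.5 and 1.26 CPM (8.45, SE 0.13). In the other direction IGF2BP1, an RNA-binding protein of fetal tissues, had 0 and 0.13 CPM in HUCCT1 and 226 and 227 CPM in EGI-1 (log2 fold change -11.71, SE 0.21). CD81, a tetraspanin found on most cell types, had 0.29 and 0.095 CPM in HUCCT1 and 224 CPM in both EGI-1 libraries (-10.17, SE 0.17). LARGE2, NRIP3, HOXB13, the integrin-linked adaptor gene PARVB, PCDHB8, HERC5 and HOXB8 lay between -7.84 and -6.86. The histone gene H3C8 led this direction at -12.02, with the limit of shared reads given above, and its call was lost without either HUCCT1 library, at -11.34 and -13.22. For these 20 genes the adjusted p of edgeR's quasi-likelihood test was at most 1.5e-05, and the libraries of the lines did not overlap in any of them, which is how they were chosen.

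Liver and foregut transcription factors divided between the lines. Of 40 lineage factors 31 were tested, 15 were higher in HUCCT1 and 13 in EGI-1, and the median log2 fold change was 0.34. FOXA2, a pioneer factor of endoderm, stood at 60.2 and 80.8 CPM in HUCCT1 and at 1.02 and 1.33 CPM in EGI-1, while its paralog FOXA1 stood at 22.1 and 25.4 against 109 and 114 CPM. The pair thus took opposite sides, with log2 fold changes of 5.91 (SE 0.18) and -2.23 (SE 0.09). HNF4A, a master regulator of hepatocyte genes, was low but present in HUCCT1 at 4.14 and 5.43 CPM and nearly absent from EGI-1 at 0.29 and 0.105 CPM. GATA6 and HHEX were higher in HUCCT1, with 2.42 (SE 0.12) and 2.33 (SE 0.12). ONECUT2 stood at 2.26 and 2.21 CPM in HUCCT1 and at 146 and 148 CPM in EGI-1 (-6.04, SE 0.11), and PROX1 was also higher in EGI-1. CEBPA and NKX6-1 were silent in HUCCT1, and in EGI-1 they were low, at 5.40 and 5.69 CPM and at 1.41 and 1.29 CPM.

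HOX genes and clustered protocadherins were nearly all higher in EGI-1. HOX genes set position along the body axis and stay as a memory of it in adult cells. Of 20 HOXA and HOXB genes tested, 15 were higher in EGI-1 and 3 in HUCCT1, and the median was -4.16. HOXB9 stood at 7.71 and 10.0 CPM in HUCCT1 and at 151 CPM in both EGI-1 libraries, and HOXA11 at 0 counts against 7.89 and 8.45 CPM. The anterior genes HOXA3 and HOXB3 went the other way, with log2 fold changes of 1.23 (SE 0.12) and 0.68 (SE 0.09). All 11 HOXC and HOXD genes that were tested, of 18, were higher in EGI-1, and 10 of them beyond 2-fold. Their median was -7.05, or -5.47 with silent genes set at their bounds. Clustered protocadherins are adhesion proteins best known from neurons, encoded in 3 arrays on chromosome 5. Of 36 tested, 34 were higher in EGI-1 and 0 in HUCCT1, 30 were beyond 2-fold, and the median was -3.22. PCDHGC3, of the last array, stood at 17.5 and 18 against 15.3 and 19 CPM and did not pass the test.

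Genes of epithelial junctions were expressed in both lines, while N-cadherin and vimentin were nearly confined to HUCCT1. Of 40 junction genes 14 were higher in HUCCT1 and 20 in EGI-1, 7 (17.5%) were beyond 2-fold against 19.5% of all genes, and the median was -0.19. CDH1, the gene of E-cadherin, stood at 292 and 303 CPM in HUCCT1 and at 509 and 506 CPM in EGI-1. CDH2, the gene of N-cadherin, stood at 182 and 172 CPM against 0.67 and 0.98 CPM, a log2 fold change of 7.75 (SE 0.14), and VIM, the gene of vimentin, at 78.5 and 72.7 against 0.45 and 0.24 CPM (7.74, SE 0.17). HUCCT1 thus expressed E-cadherin together with N-cadherin and vimentin, and EGI-1 had almost no mRNA of the latter pair. Over the whole mesenchymal list of 25 tested genes, 13 were higher in HUCCT1 and 4 in EGI-1, with a median of 0.53. The 4 included S100A4, at 2.42 and 2.46 CPM in HUCCT1 against 201 and 198 CPM in EGI-1 (-6.35, SE 0.11), and FN1, the gene of fibronectin, at 370 and 363 against 908 and 889 CPM.

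Matrix genes leaned to HUCCT1. Of 32 collagens and laminins tested, 23 were higher in HUCCT1 and 3 in EGI-1, 14 and 1 of them beyond 2-fold, and the median was 0.83. COL8A1 stood at 260 and 262 CPM against 1.53 and 1.40 CPM, COL6A2 at 315 and 335 against 3.74 and 3.0 CPM, and COL12A1 at 321 and 304 against 16.1 and 15.8 CPM. COL17A1, a collagen of hemidesmosomes, was also higher in HUCCT1, whereas LAMA1 was at 0.76 and 0.51 CPM there and at 16.2 and 17.2 CPM in EGI-1. Proteases and their inhibitors divided evenly, 14 against 15 of 35, with MMP1 and ADAMTS9 higher in HUCCT1 (5.19, SE 0.15, and 7.25, SE 0.18) and the inhibitor genes TIMP3 and SERPINE2 higher in EGI-1. Of 18 integrins 6 were higher in HUCCT1 and 5 in EGI-1, among them ITGB2, known from leukocytes, at 49.0 and 51.9 against 2.05 and 1.82 CPM. Outside the lists, THBS1, an adhesive matrix glycoprotein, and TGM2, a transglutaminase that crosslinks matrix proteins, were singled out after their values were seen. THBS1 stood at 21030 and 20670 CPM in HUCCT1 against 1177 and 1138 CPM in EGI-1, and TGM2 at 10120 and 11110 against 306 and 297 CPM. Of 17 mucins and trefoil factors tested 9 were higher in HUCCT1 and 8 in EGI-1, with the gel-forming mucin gene MUC5AC at 608 and 671 against 23.4 and 22.4 CPM, and the membrane mucin gene MUC4 at 0.38 and 0.60 against 9.78 and 14 CPM.

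**Figure D3:**
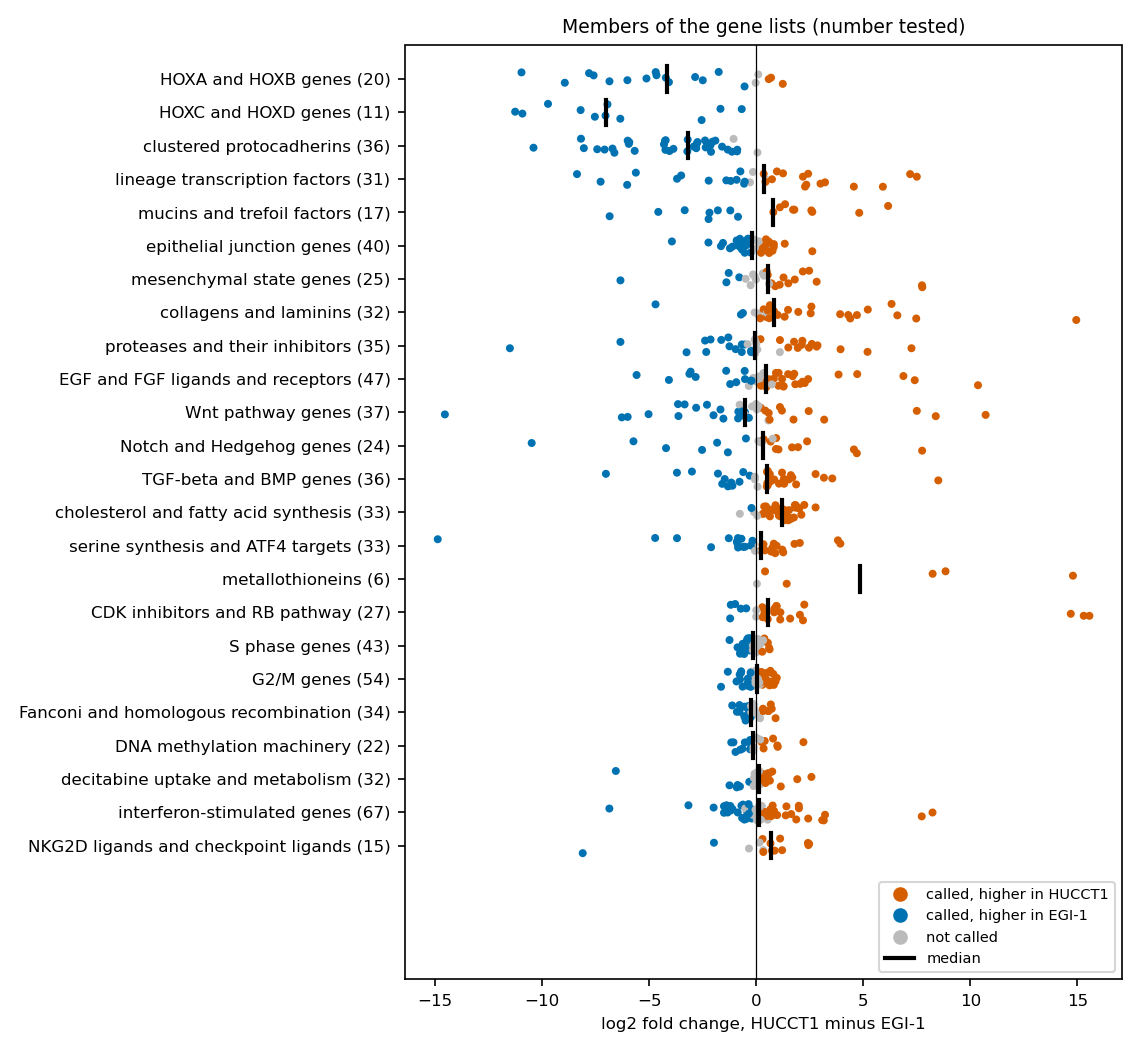
Log2 fold change, HUCCT1 minus EGI-1, of each tested member of 24 gene lists, orange where called higher in HUCCT1, blue where called higher in EGI-1 and grey where not called, with a black bar at the median and the number tested in parentheses. HOX genes and protocadherins lie mostly to the left with medians of -4.16, -7.05 and -3.22, cholesterol and fatty acid synthesis lies to the right at 1.21, and cell cycle lists lie near 0.

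Growth factor receptors differed by member. Of 47 tested EGF and FGF ligands and receptors with related kinases, 25 were higher in HUCCT1 and 12 in EGI-1, with a median of 0.47. EGFR stood at 1888 and 1960 CPM in HUCCT1 and at 434 and 430 CPM in EGI-1, a log2 fold change of 2.16 (SE 0.08). Its ligand AREG was higher in HUCCT1 too (1.70, SE 0.08), while ERBB2, ERBB3 and MET did not pass the test, with log2 fold changes between -0.011 and 0.15. FGF receptors were exchanged between the lines, with FGFR2 at 16.8 and 19.6 CPM in HUCCT1 against 1.12 and 1.43 CPM, and FGFR3 at 0.48 and 0.25 CPM against 16.9 and 18.8 CPM in EGI-1. FGFR4 and the insulin receptor gene INSR were higher in EGI-1 (-3.13, SE 0.16, and -4.09, SE 0.13), and the ephrin receptor gene EPHA4 was higher in HUCCT1 (6.87, SE 0.20).

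In the Wnt pathway 12 of 37 tested genes were higher in HUCCT1 and 18 in EGI-1, and the median was -0.53. The ligands WNT5A and WNT7A were silent in EGI-1, at 6.24 and 7.36 CPM and at 27.7 and 30.6 CPM in HUCCT1. In turn RSPO3, the ligand gene WNT5B, the transcription factor gene LEF1 and RNF43, a ligase that removes Wnt receptors, were silent in HUCCT1. Unlike RSPO3, the others were low in EGI-1 too, with WNT5B at 4.79 and 3.91, RNF43 at 4.475 and 3.563 and LEF1 at 1.47 and 1.92 CPM. Genes of the Hedgehog pathway were divided between the lines as well. The ligand gene SHH stood at 0.41 and 0.22 CPM in HUCCT1 and at 17.8 and 16.6 CPM in EGI-1, where SMO was expressed as well, while the transcription factor gene GLI2 stood at 91.5 and 118 CPM in HUCCT1 and at 0.54 and 0.42 CPM in EGI-1. HHIP, an inhibitor that is also a target of the pathway, was higher in HUCCT1 (4.69, SE 0.17), and NOTCH3 was higher in EGI-1 (-4.22, SE 0.23). Of 36 TGF-beta and BMP genes 20 were higher in HUCCT1 and 13 in EGI-1. The ligand gene TGFB2 stood at 162.1 ± 2.77 against 18.2 ± 0.104 CPM (SD, n = 2 libraries), and the stress-induced GDF15 at 8.28 and 7.71 against 108 and 101 CPM.

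Lipid synthesis was higher in HUCCT1 nearly throughout. Of 33 genes of cholesterol and fatty acid synthesis 29 were higher in HUCCT1 and 1 in EGI-1, 18 of them beyond 2-fold, and the median was 1.21. HMGCS1, an early enzyme of cholesterol synthesis, stood at 368 and 328 CPM against 122 and 126 CPM. The desaturase gene SCD stood at 2500 and 2691 against 774 and 766 CPM, and EBP had the highest log2 fold change of the list, 2.77 (SE 0.09). SREBF2, the transcription factor of the sterol genes, differed by 0.38 (SE 0.08), but by 0.13 without a call when library totals alone set the scale. Its paralog SREBF1 did not pass the test, although it was called higher in EGI-1 with upper-quartile factors (-0.23), with library totals (-0.36) and without HUCCT1 library 2 (-0.15). ELOVL6 was the single member higher in EGI-1 (-0.23, SE 0.08), a call that was lost without either EGI-1 library, at -0.21 and -0.25, with DESeq2 (-0.20) and with all 12 libraries in the fit (-0.21). The lines were grown in different media, and medium and line cannot be told apart here.

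Serine synthesis and ATF4 target genes showed no common direction, with 17 of 33 higher in HUCCT1 and 14 in EGI-1. Besides PSAT1, PHGDH, the first enzyme of serine synthesis, was higher in EGI-1, at 180 and 176 CPM against 67.2 and 78.3 CPM, as was the amino acid transporter gene SLC7A5. Metallothioneins, small proteins that bind zinc and copper, were higher in HUCCT1 in 5 of 6 tested, with MT1E at 112 and 118 CPM against 0 and 0 counts. Of 29 tested glutathione transferase, UGT and CYP genes 15 were higher in HUCCT1 and 12 in EGI-1, with GSTM3 silent in EGI-1. FTH1, the heavy chain of the iron store ferritin, stood at 111 and 90.2 against 678 and 775 CPM, within NRF2 targets of which 14 of 33 were higher in HUCCT1 and 12 in EGI-1. Of 31 glycolysis and hypoxia genes 13 were higher in HUCCT1 and 14 in EGI-1, with ADM and EGLN3 higher in EGI-1 (-2.98, SE 0.10, and -3.02, SE 0.16).

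Cell cycle genes differed little in size. Among 54 G2/M genes 18 were higher in HUCCT1 and 16 in EGI-1, with a median of 0.035 that fell below 0 with upper-quartile factors (-0.084) and with library totals alone (-0.22). Among 43 S phase genes 6 were higher in HUCCT1 and 20 in EGI-1, with a median of -0.17. NDC80 (-1.65, SE 0.09), TACC3 (-1.33) and TYMS (-1.26, SE 0.09), all higher in EGI-1, were the members of these lists beyond 2-fold, and MKI67, the proliferation marker, stood at 1027 and 1075 against 988 and 997 CPM without passing. Genes of CDK inhibitors and the RB pathway differed more. Of 27 tested, 20 were higher in HUCCT1 and 5 in EGI-1, with a median of 0.53. Beside the silent CDKN2A and CDKN2B of EGI-1, CDKN2C stood at 51.2 and 57.5 CPM in HUCCT1 against 10.6 and 12.4 CPM, and CDK6, a kinase that these proteins inhibit, at 950 and 850 against 218 and 221 CPM. CDKN1A, the gene of the CDK inhibitor p21, stood at 113 and 134 against 64.3 and 63.6 CPM.

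Of the targets of the study's drugs, DNMT1, PARP1 and PARP2 were close between the lines, while DNMT3A was not. DNMT1, the maintenance methyltransferase that decitabine traps, stood at 340 and 367 CPM in HUCCT1 and at 414 and 412 CPM in EGI-1, a log2 fold change of -0.23 (SE 0.08, adjusted p = 0.015 in edgeR). That call was lost when either EGI-1 library was left out, at -0.22 and -0.23, where only the HUCCT1 pair measures the spread. DNMT3A was higher in EGI-1, at 22.1 and 20.8 against 10.5 and 9.92 CPM, and DNMT3B did not pass the test. Of 22 genes of the DNA methylation machinery 7 were higher in HUCCT1 and 10 in EGI-1, with a median of -0.14. ZBTB38, a reader of methylated DNA, was the single member beyond 2-fold by the test, at 521 and 472 against 108 and 108 CPM. PARP1 and PARP2 were 1.19-fold and 1.23-fold higher in EGI-1, with log2 fold changes of -0.25 (SE 0.07) and -0.30 (SE 0.10), and both calls were lost when either EGI-1 library was left out, at values between -0.30 and -0.25. That of PARP2 was also lost with DESeq2, at -0.27. Of 26 tested PARP and ADP-ribose genes 11 were higher in HUCCT1 and 9 in EGI-1.

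Of 32 genes of decitabine uptake and metabolism 12 were higher in HUCCT1 and 7 in EGI-1, a share called of 59.4% against 62.1% of all genes. All genes include noncoding ones, and protein-coding genes were called more often, as given above. DCK, the kinase that activates decitabine, stood at 19.8 and 18.9 against 18.2 and 17.8 CPM, and CDA, the deaminase that degrades it, at 82.8 and 89.6 against 86.9 and 89.3 CPM. Neither passed the test, nor did SAMHD1 or DCTD. The nucleoside transporter gene SLC29A1 differed by -0.33 (SE 0.08; not called without EGI-1 library 1, at -0.29), SLC29A2 by 1.14 (SE 0.08) and SLC29A3 by 1.91 (SE 0.11), while SLC28A1 was silent in HUCCT1 and at 4.92 and 4.86 CPM in EGI-1. Fanconi and homologous recombination genes were lower in HUCCT1 in 16 of 34 and higher in 7, none beyond 2-fold by the test, with FANCA at 49.1 and 54.5 against 113 and 114 CPM. SLFN11, whose product sensitizes cells to PARP inhibitors, was under 1 CPM in all 4 libraries. Of 12 tested ABC transporters 5 were higher in HUCCT1 and 3 in EGI-1.

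Of the other genes that the study measured, KRT19, CDKN1A, IL6 and GAPDH were higher in HUCCT1, and LMNB1 and H2AX did not pass the test. SFRP1 and UCHL1 were too low to be tested, with 0.13 and 0.16 CPM of SFRP1 in HUCCT1, no count of it in EGI-1 and no count of UCHL1 in any of the 4 libraries. GAPDH, often taken as a reference gene, stood at 5947 and 5973 CPM against 2429 and 2430 CPM (1.30, SE 0.07). SOX17, a biliary factor silenced in part of CCA, had 0.76 and 0.70 CPM in HUCCT1 and no count in EGI-1. Among 33 tested genes known for promoter methylation in carcinoma, 17 were higher in HUCCT1 and 11 in EGI-1. TIMP3, ZNF331 and RUNX3 were silent in HUCCT1, and CDKN2A, CDKN2B, TFPI2, MGMT and LHX6 were silent in EGI-1. MGMT, a DNA repair enzyme for alkylated guanine, stood at 3.38 and 3.13 CPM in HUCCT1, and LHX6 at only 2.17 and 1.71 CPM there. Of 14 tested imprinted genes 10 were higher in HUCCT1 and 3 in EGI-1, with PLAGL1 at 31.7 and 30.2 against 0.16 and 0.24 CPM and ZDBF2 silent in EGI-1.

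Immune genes were called in both directions, as were genes at large. Of 67 tested interferon-stimulated genes 27 were higher in HUCCT1 and 26 in EGI-1, a share called of 79.1% against 62.1% of all genes. Among 13910 protein-coding genes these numbers were 5394 and 4592. The median of the list was 0.10, and it fell to -0.015 with upper-quartile factors and to -0.15 with library totals. IFITM2 stood at 53.7 and 61.4 against 6.36 and 6.6 CPM and BST2 at 29.9 and 31.8 against 3.61 and 3.04 CPM, while USP18, a negative regulator of the response, stood at 1.59 and 1.33 against 13.2 and 13.2 CPM. Of 18 nucleic acid sensors 10 were higher in EGI-1 and 3 in HUCCT1, with the cytosolic DNA sensor gene CGAS at 91.4 and 99.2 CPM in EGI-1 and at 35.5 and 38.8 CPM in HUCCT1. Of 26 tested cytokines and chemokines 11 were higher in HUCCT1 and 13 in EGI-1. IL1A stood at 24.1 and 21.9 CPM in HUCCT1 and at 186 and 180 CPM in EGI-1, IL1B was also higher in EGI-1, and IL1RN, the natural antagonist of both, stood at 127 and 152 against 4.44 and 4.65 CPM. The checkpoint ligand genes CD274 and PDCD1LG2, which lie side by side on chromosome 9, were higher in HUCCT1 by 2.43 (SE 0.09) and 2.41 (SE 0.15). Of the 15 tested NKG2D and checkpoint ligands 10 were higher in HUCCT1 and 2 in EGI-1. CIITA, the activator of MHC class II genes, was higher in EGI-1, at 19.1 and 20.7 against 3.54 and 3.38 CPM. HLA levels were not read, for the reason given above.

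RNA classes that depend on how a library is made also differed. Of 59 tested replication-dependent histone genes, whose mRNAs lack a poly(A) tail, 45 were higher in EGI-1 and 6 in HUCCT1, with a median of -0.93. Of 13 mitochondrial mRNAs 12 were higher in HUCCT1, with MT-CYB at 1865 and 1582 against 575 and 574 CPM. In the decitabine libraries the medians of these lists were -1.56 and -0.22, so the mitochondrial difference had the opposite sign there. Computing library sizes without these RNAs and small RNAs gave 13794 calls in place of 13790. For EGI-1 the methods name a stranded total RNA kit with Ribo Zero Gold, and they give no kit for HUCCT1. Whether library preparation had a part in these lists was not tested.

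By position, chromosome X stood out. Of 436 tested protein-coding genes on it, 345 (79.1%) were higher in HUCCT1 and 32 (7.3%) in EGI-1, and the median log2 fold change was 0.85 against 0.059 for all protein-coding genes. Chromosomes 9, 3 and 7 followed with medians of 0.48, 0.37 and 0.35. Chromosome 6 had the lowest median, -0.61, with 434 of 658 genes higher in EGI-1, and -0.55 without histone genes and the MHC interval. Chromosomes 18, 2 and 16 had medians of -0.55, -0.33 and -0.32. These shifts were moderate and spread over many genes, while some narrower stretches went far beyond them.

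**Figure D4:**
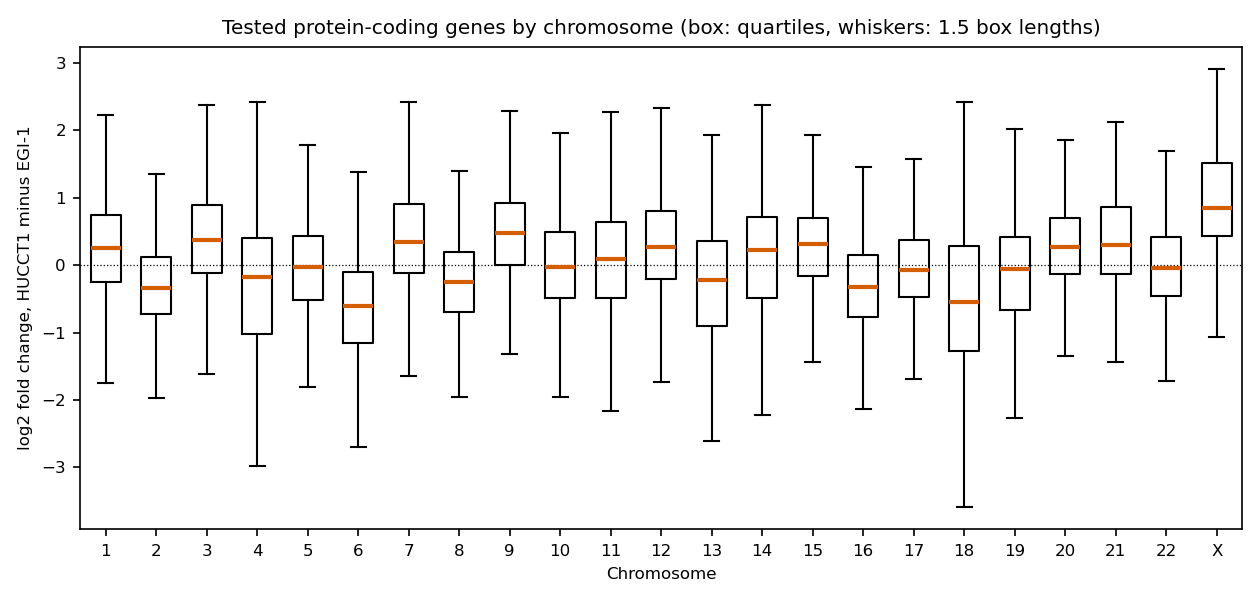
Log2 fold change, HUCCT1 minus EGI-1, of tested protein-coding genes by chromosome, with orange lines at the medians, boxes for the quartiles and whiskers up to 1.5 box lengths. Chromosome X has the highest median, 0.85, and chromosome 6 the lowest, -0.61.

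Among windows of 25 neighboring tested protein-coding genes, 88 of 13337 overlapping windows had a median of -2 or lower, 58 on chromosome 19 and 30 on chromosome 5, and 0 had a median of 2 or higher. The lowest lay at chr19:36214602-37817300, where all 25 genes encode zinc finger proteins, all 25 were called higher in EGI-1 and the median was -4.77. ZNF568 had 0 counts in HUCCT1 and 6.23 and 5.34 CPM in EGI-1, and ZNF420 stood at 0.22 and 0.25 against 5.24 and 4.09 CPM, whereas ZNF146 at one end of the window stood at 59.1 and 50.1 against 82.8 and 85.0 CPM. A second zinc finger cluster at chr19:19561707-23945159 had a median of -4.19 and the cluster at chr19:52170936-53580269 one of -2.37. The protocadherin arrays at chr5:140647058-141512975 had a median of -4.27. Such zinc finger proteins, many of them repressors of transposable elements, lie in tandem arrays on chromosome 19. Of 218 tested zinc finger genes on chromosome 19, 165 were higher in EGI-1 and 19 in HUCCT1 (median -1.04), and 27 were silent in HUCCT1 against 1 in EGI-1. Of 243 on other chromosomes 111 were higher in EGI-1 and 78 in HUCCT1 (median -0.21). Zinc finger genes of a cluster are similar in sequence, and the counting rule for reads with more than 1 match is not stated.

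The highest windows lay on chromosome X. At chrX:47582408-49074002 all 25 genes were called higher in HUCCT1 with a median of 1.76, among them TIMP1 at 95.8 and 106 against 30.1 and 29.5 CPM and HDAC6 at 68.8 and 72.4 against 36.6 and 36.1 CPM. At chrX:153802166-154751583 all 25 were likewise called with a median of 1.71, among them L1CAM at 8.45. FLNA, the gene of the actin crosslinker filamin A, stood at 9424 and 10130 against 2629 and 2588 CPM in this window. The next windows, on chromosomes 12 and 3, had medians of 1.52 and 1.37 with 20 and 22 of 25 genes higher in HUCCT1.

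The decitabine libraries of the lines, which share no library with the vehicle comparison, gave a second view of the same contrast under drug, at 1 µM in HUCCT1 and 0.5 µM in EGI-1. Of 23155 genes tested there 14505 (62.6%) were called. Of 13409 genes called in vehicle and tested there, 12369 (92.2%) had the same sign and 10191 were also called with it, while 323 were called with the opposite sign. Of 4129 genes beyond 2-fold in vehicle, 4008 (97.1%) had the same sign. For genes named here after their values were seen, the chemokine gene CXCL8 was higher in EGI-1 in vehicle (-1.18, SE 0.10) and higher in HUCCT1 in the decitabine libraries (4.41), and CXCL1 went from -2.18 to 3.63. STC2, a secreted stress glycoprotein, went from -4.73 to 1.32. The list of cytokines and chemokines had a median of -0.36 in vehicle and of 2.73 in the decitabine libraries. Among the silent genes values differed, with PSAT1 at a log2 fold change of -5.45 in the decitabine libraries, while TIMP3 came to -1.69 and WNT5B to 0.51.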

How the data were processed

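RNA sequencing was analysed for 4 vehicle libraries, 2 of HUCCT1 and 2 of EGI-1, with 8 treated libraries set beside them. The table that the authors deposited holds raw counts for 60651 genes, whole numbers without normalization. The submitters' processing notes name fastp, Trim Galore, HISAT2, featureCounts and GRCh38, whereas the methods, which describe EGI-1 only, name STAR and RSEM. Whether strand was used, how multiply matching reads were handled and which annotation was taken are not given in the sources used here, so counts of overlapping or near-identical genes are uncertain. Positions, biotypes and symbols came from GENCODE 44 on GRCh38.

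Genes were filtered with filterByExpr by line, scaled by TMM (factors from 0.906 to 1.096) and tested with the robust quasi-likelihood test of edgeR 4.0.16 in R 4.3.3, with Benjamini-Hochberg adjustment. CPM values of the vehicle libraries use these factors. TMM factors over all 12 libraries were used for CPM of treated libraries, for the 2 CPM limit in the MHC interval and for leukocyte sums set beside treated libraries. Fold changes are HUCCT1 minus EGI-1, SE is the log2 fold change divided by the root of its F statistic, and glmTreat tested differences beyond 2-fold. The decitabine libraries were fitted alike, and counting error alone was exceeded between replicates (chi-square per gene 12.6 in HUCCT1 and 2.73 in EGI-1). On data simulated for the vehicle comparison, the test recovered 95 of the 100 genes with a 2-fold and 99 of the 100 with a 4-fold change, with 7 false calls among 21420 genes. In the simulation only these genes differed, up or down in equal number, and the spread was that of the fitted model. It therefore cannot show how the test or the scaling behaves where most genes differ, as they did between these lines.

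The members of the comparison and the 44 gene lists were chosen with earlier results of these data known. Genes were named by rule as the 10 most abundant silent protein-coding genes per direction, the 10 with the largest fold change per direction at 10 CPM or more, the genes the study measured, up to 4 called members per direction of each list, the cell type markers, and the genes of the highest and lowest windows. The other genes named, such as EGFR, DCK, CDK6 and THBS1, were chosen for their known role or their values after these were seen. Genes of chromosome Y and XIST were left out, and some further genes are not reported here. Alternatives were other scalings, DESeq2 1.42.0, no filter, all 12 libraries, other floors, the replicate number as a block and leaving out each library.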

Additional observations from a re-analysis of the deposited data

How the results depend on the processing

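The 2 libraries per line and the design, in which line, medium and library series coincide, limit every value. Between 10928 and 14755 genes were called with a library left out in turn, against 13790, and the count stayed within 1.5 times of it for RLE, upper-quartile and no scaling factors, DESeq2, no filter, all 12 libraries and sizes without histone, small RNA and mitochondrial genes. Testing beyond 2-fold gave 4331 calls, 2135 higher in HUCCT1 and 2196 higher in EGI-1. Silent genes numbered 534, and 887 with a floor of 10 counts (440 in HUCCT1 and 447 in EGI-1) and 178 with 5 CPM asked of the other line (76 and 102). With each library left out they numbered 584 to 619. The labels number the libraries of each line and state no pairing between lines. Deviations of same-numbered libraries from their group means correlated at 0.0154 across genes. Genes are not independent, so this value cannot decide whether the libraries are paired. The fit with the replicate block gave 13932 calls. Of 198 genes named, 7 lost their call in at least 1 alternative, and 13 that had not passed gained one (KRT8, COL1A1, ERBB2, ERBB3, MET, SREBF1, MKI67, DNMT3B, CDA, SAMHD1, DCTD, LMNB1 and H2AX). MKI67 was called in both directions, at -0.17 with library totals alone and at 0.15 without HUCCT1 library 1. A fit without an EGI-1 library measures spread in the HUCCT1 pair only, and one without a HUCCT1 library in the EGI-1 pair only. Replicates differed more in HUCCT1, with a chi-square per gene of 12.6 against 2.73. Calls can thus be lost or gained in such fits at nearly the same fold, and the part of this spread was not tested. Of 396 list medians under alternatives 120 moved by more than the spread between replicates and 19 changed sign, each of them near 0. Chromosomes with a median above 0 numbered 11 of 23, and 11 to 14 with a library left out. A count of 3 or fewer does not show that a gene is not expressed.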
